A study of Mus musculus with 15 samples.

Results

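Myo-inositol is a sugar alcohol that cells take up from their surroundings, make from glucose 6-phosphate or recover from used inositol phosphates. It is the head group of phosphatidylinositol, from which phospholipase C releases inositol trisphosphate, and kinases build the more highly phosphorylated inositol phosphates from that product. In several tissues myo-inositol also serves as an organic osmolyte, as taurine does. The genes described here are the 9 listed by symbol for the synthesis, recycling, transport and phosphorylation of myo-inositol (*Isyna1*, *Impa1*, *Impa2*, *Inpp1*, *Slc2a13*, *Itpk1*, *Ippk*, *Minpp1* and *Cdipt*), out of 56832 genes in the table. All 9 were found, and all 9 passed the filter on low counts that left 17204 genes for testing.

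RNA was sequenced from cultured mesenchymal stromal cells (MSCs) of the long bones of 16 week old C57BL/6J mice. The study enriched MSCs from such cultures by flow sorting or by magnetic depletion of cells with CD45, Ter119 or CD31, without saying which was used for these libraries. TauT+/+ mice carry the taurine transporter gene *Slc6a6*, and TauT-/- mice are global knockouts that lack it in every tissue, so the gene was also missing outside the MSCs. The libraries were labelled as 4 male and 3 female TauT+/+ samples and 4 male and 4 female TauT-/- samples, 15 in all, and the labels name no treatment. The comparison asks whether the transcripts of inositol metabolism differ when taurine uptake is lost.

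*Slc6a6* had 1857, 2591, 830 and 592 CPM (counts after scaling of each library to one size) in male TauT+/+ libraries 1 to 4 and 1712, 2127 and 1289 CPM in female TauT+/+ libraries 1 to 3. It had 404, 1251, 537 and 844 CPM in male TauT-/- libraries 1 to 4 and 401, 723, 771 and 1521 CPM in female TauT-/- libraries 1 to 4. The genotypes overlapped, the sources used here do not give the deleted exons, and libraries are therefore named by their labels. Male-labelled libraries held 69764291 to 101575071 counts and female-labelled ones 12761107 to 20781070, so depth and sex label cannot be told apart. Sex-linked genes went against the label in 3 libraries (TauT+/+ male 1, TauT-/- male 1 and TauT+/+ female 3), and male 1 and female 1 of each genotype were nearly identical, with a spread of the log2 count ratio of 0.114 in TauT+/+ and 0.102 in TauT-/- against 0.261 in the next closest of 105 pairs. Of 10 stromal markers, *Cxcl12* ranged from 86.5 to 23382 CPM and *Lepr* from 0 to 2.35 CPM. Each of 13 macrophage markers was detected in all 15 libraries, with summed levels of 1320 to 9198 CPM (median 7765) in TauT+/+ and 6274 to 19475 CPM (median 14609) in TauT-/- cultures. All 13 had a positive log2 fold change, with a median of 0.91, and 1 passed the test. Summed stromal markers were 19678 to 37409 CPM (median 24904) in TauT+/+ and 4504 to 26611 CPM (median 13693) in TauT-/- cultures, 3 of 10 had a positive log2 fold change, and 0 passed. Of 4 osteoblast markers 3 could be tested, 0 had a positive log2 fold change and 0 passed, with a median of -0.43 and sums of 11 to 346 CPM in TauT+/+ and 9.75 to 530.2 CPM in TauT-/- cultures. Lymphoid and erythroid markers were near 0. In bulk samples, fewer cells of a type and less RNA per cell cannot be told apart.

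None of the 9 inositol genes passed the test between the genotypes. With terms for sex label and genotype, edgeR's quasi-likelihood test called 0 of 9 lower and 0 of 9 higher in TauT-/- MSCs at a Benjamini-Hochberg adjusted p under 0.05, where 0.75% of all tested genes were called lower and 0.546% higher. DESeq2 also called 0 of 9 in either direction, against 6.31% lower and 5.28% higher among all genes it tested. At an unadjusted p under 0.05 in edgeR, 0 of 9 were lower and 1 of 9, *Impa2*, was higher, against 13% and 10.6% of all genes. The genotypes overlapped for all 9 genes, while 1.13% of the tested genes had no overlap. The log2 fold change (TauT-/- minus TauT+/+) was negative for 5 members and positive for 4, with a median of -0.034, and the median of all genes tested was -0.015. These p-values measure the spread between the libraries of this series.

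**Figure D1:**
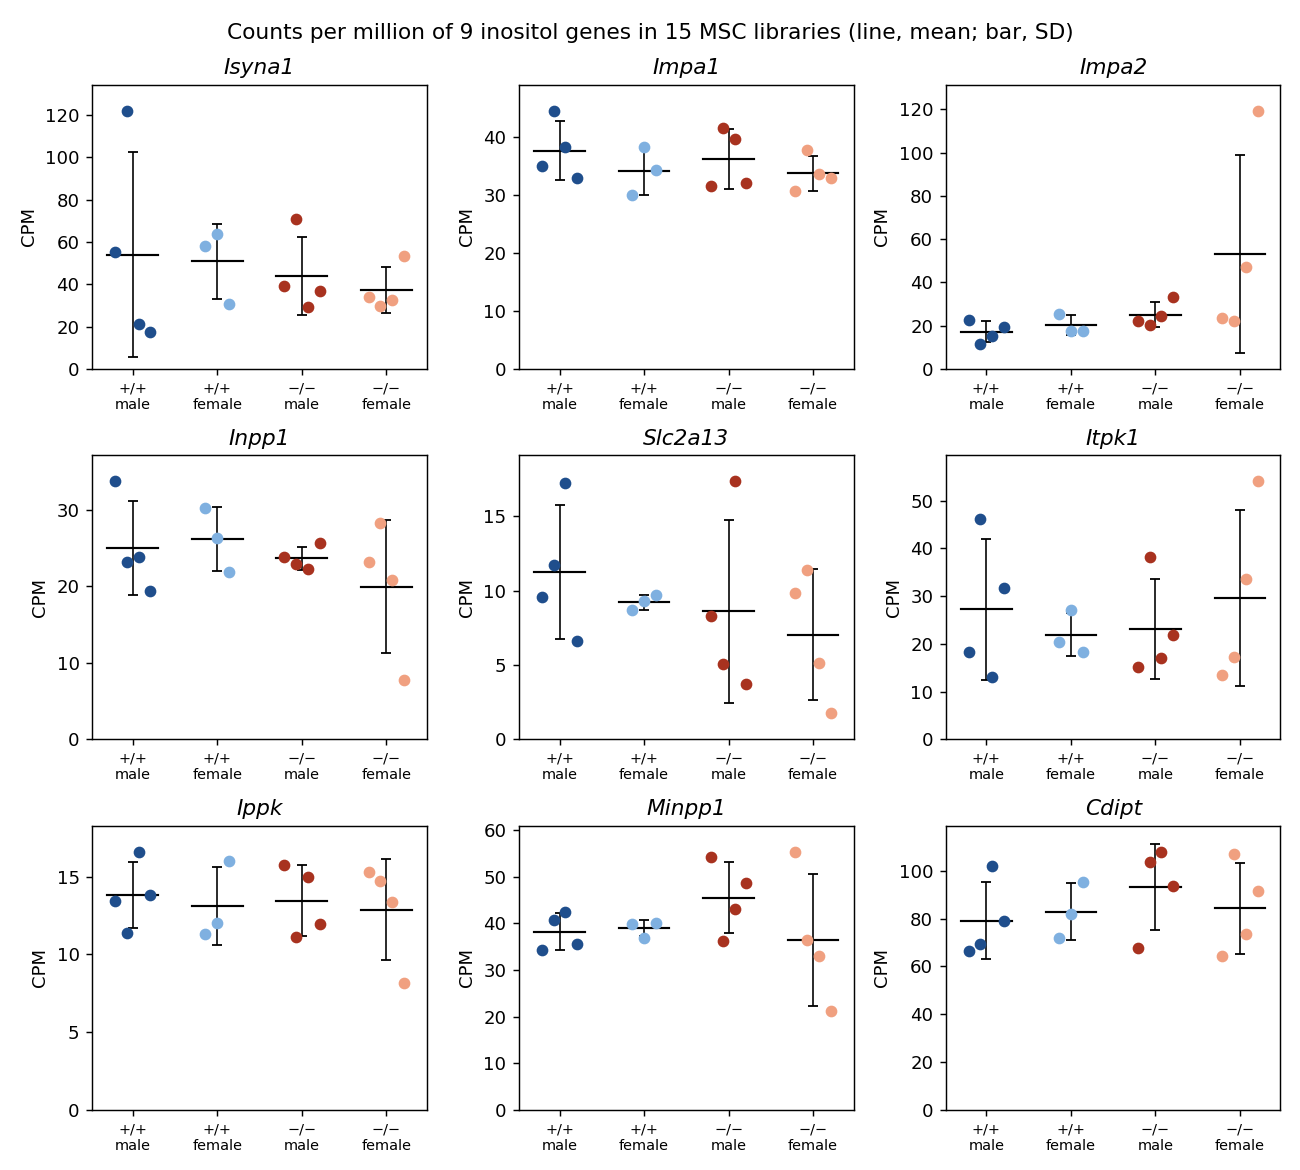
CPM (vertical axes, from 0) of each of the 9 genes in the 4 groups, with 1 point per library in order of its label number, a line at the group mean and a bar for the SD. The groups overlap in every panel, and the TauT-/- female 4 library stands highest for *Impa2* at 119 CPM and lowest for *Inpp1* at 7.72 CPM.

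*Isyna1* encodes inositol-3-phosphate synthase, which converts glucose 6-phosphate to inositol 3-phosphate and starts the synthesis of inositol. The gene lies on the plus strand of chromosome 8 of GRCm39, from 71047023 to 71049940. It had 55.2, 122, 21.2 and 17.4 CPM in male TauT+/+ libraries 1 to 4, and 58.3, 63.7 and 30.6 CPM in female TauT+/+ libraries 1 to 3. In TauT-/- MSCs it had 39.2, 70.9, 29.0 and 36.9 CPM in male libraries 1 to 4, and 34.2, 29.6, 32.4 and 53.2 CPM in female libraries 1 to 4. The widest spread of *Isyna1* was thus among the male TauT+/+ libraries, which held both its highest and its 2 lowest values. TauT+/+ libraries averaged 52.7 ± 35.8 CPM (SD, n = 7) and TauT-/- libraries 40.7 ± 14.4 CPM (SD, n = 8), and 7 of 8 TauT-/- libraries were below the TauT+/+ median. This was a log2 fold change of -0.36 (standard error of the estimate, SE, 0.37, 95% interval -1.15 to 0.42, edgeR adjusted p = 0.572), so the interval spans ratios from 0.450 to 1.34. Without the TauT+/+ male 2 library the log2 fold change was 0.014, close to no difference.

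The 2 inositol monophosphatases, which take the last phosphate off inositol monophosphates made by *Isyna1* or left by signalling, had unlike patterns. *Impa1*, on the minus strand of chromosome 3 from 10377016 to 10396499, ranged from 29.9 to 44.6 CPM (median 35.0) in TauT+/+ and from 30.6 to 41.6 CPM (median 33.3) in TauT-/- libraries. It was the steadiest of the 9 genes over all libraries, with a highest value 1.49 times the lowest. Its log2 fold change of -0.039 (SE 0.098, edgeR adjusted p = 0.844) had a 95% interval of -0.25 to 0.17, which corresponds to ratios of 0.842 to 1.13.

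*Impa2*, which lies on chromosome 18 and encodes the second monophosphatase, varied most among all libraries, with a highest value 10.6 times the lowest. It had 22.7, 11.3, 15.3 and 19.2 CPM in male TauT+/+ libraries 1 to 4, and 25.6, 17.7 and 17.6 CPM in female TauT+/+ libraries 1 to 3. In TauT-/- MSCs it had 22.2, 20.4, 24.2 and 33.2 CPM in male libraries 1 to 4, and 23.7, 22.1, 47.0 and 119 CPM in female libraries 1 to 4. All 8 TauT-/- libraries were above the TauT+/+ median, and 3 of them (female 3, female 4 and male 4) were above the highest TauT+/+ library, while the other TauT-/- values lay within the TauT+/+ range. The means were 18.5 ± 4.68 CPM (SD, n = 7) and 39.0 ± 33.7 CPM (SD, n = 8). The log2 fold change of 0.93 (SE 0.35, 95% interval 0.19 to 1.66) had an unadjusted p of 0.0174 and an adjusted p of 0.13 by edgeR, and an adjusted p of 0.059 by DESeq2. It was 0.57 without the TauT-/- female 4 library, which also had the highest summed macrophage markers (19475 CPM). The TauT+/+ male 2 library, with the lowest *Impa2*, had the lowest macrophage sum (1320 CPM). The next highest sums after female 4 were 18212 CPM in TauT-/- female 2 and 15969 CPM in TauT-/- male 3. *Impa2* was at 22.1 and 24.2 CPM in these libraries. With the mean of the macrophage markers as a covariate, the log2 fold change of *Impa2* was 0.51 (SE 0.44, edgeR adjusted p = 0.766). The part of macrophages in the level of *Impa2* was not tested. Fits without the male-labelled or without the female-labelled library of both near-identical pairs gave 1.09 and 1.04. A fit without the 3 libraries that went against the sex label gave 1.05. No adjusted p of these fits was below 0.05.

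*Inpp1* encodes inositol polyphosphate 1-phosphatase, which removes the 1-phosphate from inositol bisphosphate upstream of the monophosphatases. It lies on the minus strand of chromosome 1, from 52823863 to 52884045. Its level was 19.4 to 33.7 CPM (median 23.8) in TauT+/+ and 7.72 to 28.2 CPM (median 23.0) in TauT-/- libraries, and 1 TauT-/- library, female 4, was below every TauT+/+ library. *Inpp1* had a log2 fold change of -0.22 (SE 0.21, 95% interval -0.68 to 0.23, edgeR adjusted p = 0.55), and of -0.097 without that library.

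*Slc2a13* encodes HMIT, a proton-coupled myo-inositol transporter, and spans chromosome 15 from 91151898 to 91457464 on the minus strand. It ranged from 6.59 to 17.3 CPM (median 9.54) in TauT+/+ and from 1.77 to 17.4 CPM (median 6.73) in TauT-/- libraries. In the TauT-/- group 4 libraries (male 2 and 4, female 3 and 4) were below the lowest TauT+/+ library, and 1, male 3, was above the highest. The means of 10.4 ± 3.38 CPM (SD, n = 7) and 7.82 ± 5.02 CPM (SD, n = 8) gave a log2 fold change of -0.39 (SE 0.38, 95% interval -1.21 to 0.43, edgeR adjusted p = 0.561). Only 34 reads were counted for *Slc2a13* in the TauT-/- female 4 library, the smallest count of any of the 9 genes in any library.

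The 2 kinases among the members act at different steps. *Itpk1*, a kinase of inositol trisphosphates and tetrakisphosphates on the minus strand of chromosome 12 from 102534840 to 102671638, ranged from 13.1 to 46.1 CPM (median 20.3) in TauT+/+ and from 13.5 to 54.1 CPM (median 19.6) in TauT-/- libraries. High values occurred in both genotypes (TauT+/+ male 2 and TauT-/- female 4), and the log2 fold change was 0.064 (SE 0.35, 95% interval -0.68 to 0.81, edgeR adjusted p = 0.934). Its sign turned when single libraries were left out, with -0.15 without TauT-/- female 4 and 0.28 without TauT+/+ male 2. *Ippk* adds the phosphate at position 2 that completes inositol hexakisphosphate, and lies on the plus strand of chromosome 13 from 49574669 to 49618055. It ranged from 11.3 to 16.6 CPM (median 13.5) in TauT+/+ and from 8.13 to 15.8 CPM (median 14.0) in TauT-/- libraries. The log2 fold change of *Ippk* was -0.034 (SE 0.15, 95% interval -0.36 to 0.29, edgeR adjusted p = 0.917).

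*Minpp1* encodes the multiple inositol-polyphosphate phosphatase, which takes phosphates off inositol hexakisphosphate and pentakisphosphate, and lies on the plus strand of chromosome 19 from 32463126 to 32517563. The TauT+/+ libraries lay close together at 34.3 to 42.5 CPM (median 39.9), with a coefficient of variation of 7.78%. The TauT-/- libraries spread on both sides of that range, from 21.2 to 55.4 CPM (median 39.8) and with a coefficient of variation of 28.3%, so that 4 were above and 2 below every TauT+/+ library. Those above included TauT-/- female 1 (55.4 CPM) and male 1 (54.3 CPM), which are a near-identical pair, and the TauT+/+ libraries also held such a pair. The difference in spread was not tested. Between genotypes the log2 fold change was 0.092 (SE 0.17, 95% interval -0.26 to 0.45, edgeR adjusted p = 0.769). Stretches of 1382 and 955 bases on chromosome 4, from 112834682 to 112837011 and annotated as *Gm12818* and *Skint6*, matched the longest *Minpp1* transcript at 96.5% and 97.6% identity, with 0 to 3 counts of *Gm12818* and 0 of *Skint6* in each library. The other 8 members had 0 matches elsewhere in the genome of at least 150 bases and 95% identity.

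*Cdipt* encodes phosphatidylinositol synthase, which joins myo-inositol to CDP-diacylglycerol, and lies on the plus strand of chromosome 7 from 126574782 to 126582587. It had the highest mean CPM of the 9 genes in both genotypes, at 66.6 to 102 CPM (median 78.9) in TauT+/+ and 64.5 to 108 CPM (median 92.6) in TauT-/- libraries. The male TauT-/- values were 67.6, 104, 108 and 93.5 CPM in libraries 1 to 4, and the female ones 64.5, 107, 73.8 and 91.8 CPM. The lowest value under each sex label was that of library 1. These libraries, TauT-/- male 1 and female 1, are a near-identical pair, and sex-linked genes of male 1 went against its label. *Cdipt* had a log2 fold change of 0.14 (SE 0.14, 95% interval -0.17 to 0.44, edgeR adjusted p = 0.589). Exons of the antisense gene *Cdiptos* cover 19.3% of the *Cdipt* exon bases. *Cdiptos* had a median of 22 counts against 4572 for *Cdipt*, and reads of the 2 genes may not be told apart if the kit does not mark the strand.

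**Figure D2:**
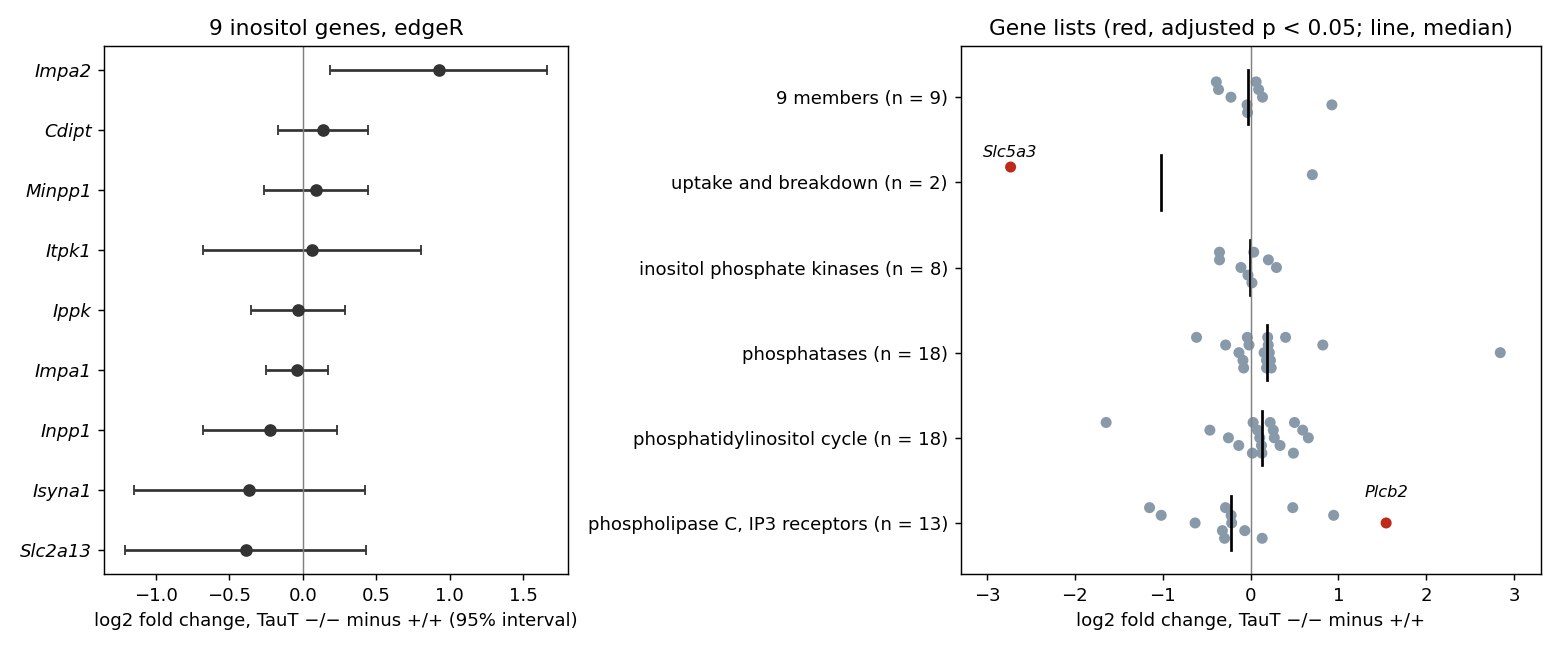
Left, the edgeR log2 fold change (TauT-/- minus TauT+/+) of each of the 9 genes with its 95% interval, which is above 0 for *Impa2* and spans 0 for the other 8. Right, each tested gene of the member list and of 5 further lists as 1 point, red where the adjusted p is under 0.05 (*Slc5a3* and *Plcb2*), with a line at each list's median.

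Within the sex labels, edgeR with 1 term per group called 0 of 9 members in male-labelled and 0 of 9 in female-labelled MSCs, and 0% of the 17204 genes in either. At an unadjusted p under 0.05, 0 of 9 members and 1483 of the 17204 genes passed in male-labelled MSCs. In female-labelled MSCs 1 of 9 members (*Impa2*) and 2518 of the 17204 genes passed. The log2 fold change of *Impa2* was 1.39 (SE 0.50, 95% interval 0.30 to 2.47, edgeR adjusted p = 0.271) in female-labelled and 0.55 (SE 0.45, 95% interval -0.41 to 1.51, edgeR adjusted p = 0.729) in male-labelled MSCs. The difference of the effects, male minus female, was -0.84 (95% interval -2.26 to 0.58, unadjusted p = 0.225 by edgeR). No member and 0% of all genes passed the test of that difference. For it, 242 of the 17204 genes and 0 of 9 members had an unadjusted p under 0.05. *Isyna1* had log2 fold changes of -0.29 (95% interval -1.41 to 0.83) in male-labelled and -0.45 (95% interval -1.65 to 0.76) in female-labelled MSCs. *Itpk1* and *Minpp1* had opposite signs under the labels, with -0.24 and 0.25 in male-labelled and 0.44 and -0.095 in female-labelled MSCs, and each of these 4 intervals spanned 0. The near-identical male 1 and female 1 libraries of each genotype entered these fits as separate samples under different labels.

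Between the sex labels, with genotype in the model, edgeR called 0 of 9 members, against 0.00581% of genes lower and 0.0174% higher in male-labelled libraries. The largest difference among the members was in *Impa2*, at -0.70 for male minus female (SE 0.34, 95% interval -1.43 to 0.024, edgeR adjusted p = 0.88). *Slc2a13* followed with 0.29 and *Isyna1* with 0.17, and the intervals of both spanned 0. This comparison also held the near-identical pairs on both sides. It kept the labels of TauT+/+ male 1, TauT-/- male 1 and TauT+/+ female 3, which sex-linked genes went against.

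Levels of different genes can be compared per exon length, as RPKM (CPM divided by the kilobases of all annotated exons). On that scale *Isyna1* came first in TauT+/+ MSCs, at 21.6 ± 14.7 RPKM (SD, n = 7), because its exons sum to 2.436 kb against 6.085 kb for *Cdipt*. *Cdipt* followed at 13.3 ± 2.21, *Minpp1* at 10.8 ± 0.841 and *Impa1* at 6.07 ± 0.794 RPKM. *Isyna1* exceeded *Cdipt* in 4 of 7 TauT+/+ libraries, so their order was not stable, while *Cdipt* exceeded *Minpp1*, *Minpp1* exceeded *Impa1* and *Impa1* exceeded *Inpp1* in 7 of 7. *Inpp1* (2.75 ± 0.539), *Itpk1* (2.7 ± 1.21) and *Impa2* (2.54 ± 0.644 RPKM) could not be ordered, with *Inpp1* above *Itpk1* in 4 and *Itpk1* above *Impa2* in 3 of 7 libraries. *Ippk* (1.72 ± 0.273) and *Slc2a13* (1.03 ± 0.335 RPKM) were the lowest, and *Ippk* was above *Slc2a13* in 7 of 7. The length of the longest transcript in place of all exons gave the same order.

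**Figure D3:**
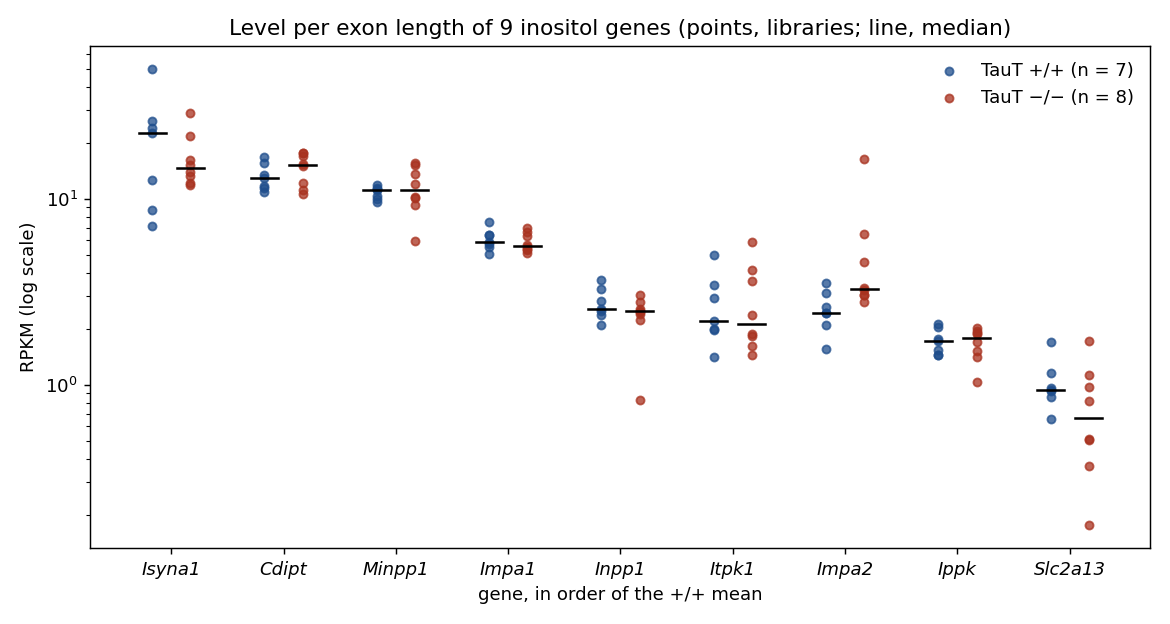
RPKM per exon length on a log scale for the 9 genes, ordered by their mean in TauT+/+ MSCs, with 1 point per library (7 TauT+/+ in blue, 8 TauT-/- in red) and a line at each median. *Isyna1* spans 7.13 to 50.1 RPKM in TauT+/+ libraries, and *Slc2a13* is lowest in both genotypes by median.

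Single libraries held many of the extremes. Of the 9 genes, 6 had their highest or lowest CPM in the TauT-/- female 4 library, the highest for *Impa2* and *Itpk1* and the lowest for *Inpp1*, *Slc2a13*, *Ippk* and *Minpp1*. That library also had the lowest summed stromal markers (4504 CPM) and the highest level of *S100a8* (49.8 CPM), while the other 4 neutrophil markers were at 0 in it. TauT+/+ male 2 held 3 extremes, with the highest *Isyna1* and *Impa1* and the lowest *Impa2*. The part of the cell mixture in these values was not tested.

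**Figure D4:**
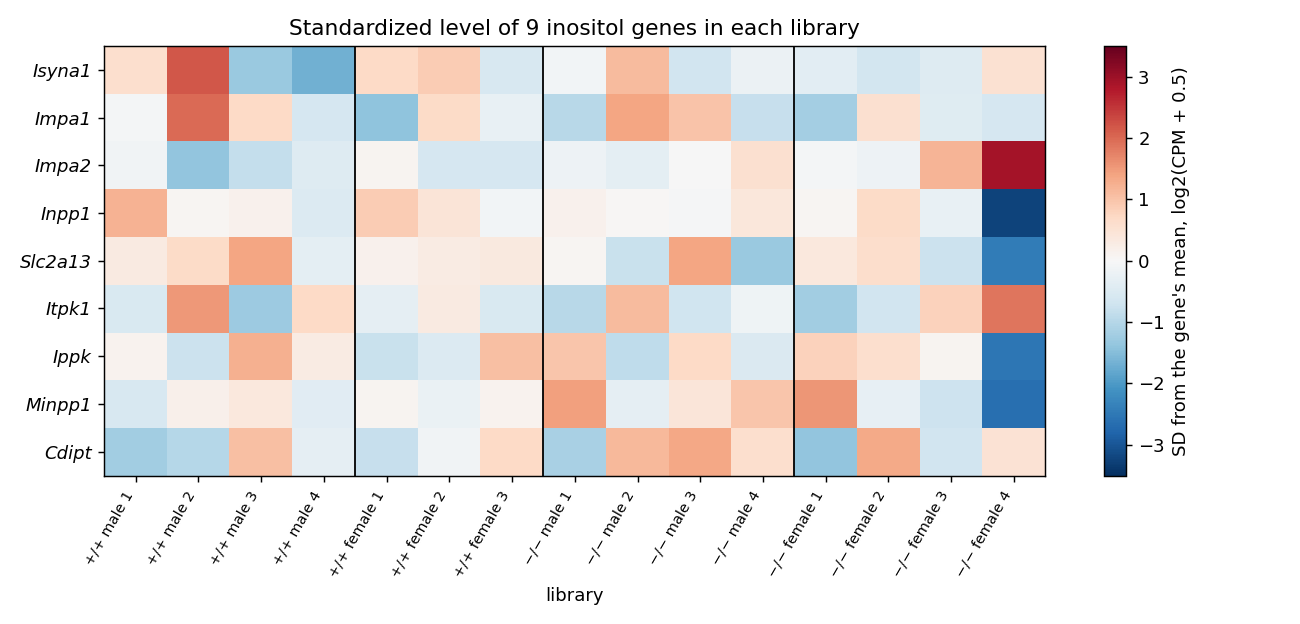
Standardized log2(CPM + 0.5) of the 9 genes (rows) in the 15 libraries (columns, grouped by genotype and sex label), in SD from each gene's mean over all libraries, red above and blue below it. The TauT-/- female 4 column is deep red for *Impa2* and deep blue for *Inpp1*, *Slc2a13*, *Ippk* and *Minpp1*.

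The likeness of patterns over the 15 libraries was measured as the mean absolute difference of the standardized log2(CPM + 0.5), where 0 is an identical pattern. Over the 36 pairs of members the median was 1.06. The closest pairs were *Slc2a13* and *Ippk* at 0.575, *Inpp1* and *Slc2a13* at 0.662, *Inpp1* and *Minpp1* at 0.674, and *Isyna1* and *Itpk1* at 0.688. *Inpp1*, *Slc2a13*, *Ippk* and *Minpp1* all had their lowest level in TauT-/- female 4, and the weight of that library in these distances was not tested. The pair least alike was *Isyna1* and *Ippk* at 1.54, and the monophosphatases *Impa1* and *Impa2* differed by 1.34. Among 13199 genes with a mean of at least 1 CPM, those most like *Isyna1* were *Peli2* at 0.388, *Slc39a1* at 0.413 and *Pcca* at 0.42, none of which passed the test between genotypes (edgeR adjusted p = 0.718, 0.598 and 0.42). All values of a pair come from the same libraries, and these distances are descriptions.

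The other genes of inositol metabolism were taken from 5 lists with 66 genes, of which 59 could be tested. edgeR called 1 lower (*Slc5a3*) and 1 higher (*Plcb2*) in TauT-/- MSCs, 1.69% in each direction against 0.75% and 0.546% of all genes. At an unadjusted p under 0.05, 5 were lower (8.47%) and 9 higher (15.3%), against 13% and 10.6% of all genes, and the median log2 fold change was 0.080. DESeq2 called 3 lower (5.08%) and 4 higher (6.78%), shares near the 6.31% and 5.28% of all genes. Each of its 5 further genes was named after its values were seen: *Plcb4* and *Itpr1*, the latter a receptor that releases calcium in response to inositol trisphosphate, were lower, and *Pi4k2a*, *Inpp5j* and *Plcg2* were higher, with edgeR adjusted p of 0.0529 to 0.106 for the 5.

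The list of uptake and breakdown held the largest fall. *Slc5a3* encodes SMIT1, the sodium-coupled carrier that brings myo-inositol into cells and is known for its response to osmotic stress. The gene lies on the plus strand of chromosome 16 from 91854965 to 91884361. It had 427, 745, 33.9 and 47.4 CPM in male TauT+/+ libraries 1 to 4, and 366, 348 and 98.2 CPM in female TauT+/+ libraries 1 to 3. In TauT-/- MSCs it had 53.3, 100.4, 20.9 and 34.8 CPM in male libraries 1 to 4, and 47.3, 60.5, 16.7 and 20.3 CPM in female libraries 1 to 4. The TauT+/+ libraries thus lay far apart, with male 3, male 4 and female 3 inside the range of the TauT-/- libraries and the other 4 above it. Among those above, male 1 and female 1 are a near-identical pair and may not be separate samples. The same holds for TauT-/- male 1 and female 1. The means were 295 ± 257 CPM (SD, n = 7) and 44.3 ± 28.0 CPM (SD, n = 8). On the log2 scale the difference was -2.73 (SE 0.63, 95% interval -4.08 to -1.38, edgeR adjusted p = 0.0495).

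Summed adipocyte markers lay at 176 to 1059 CPM (median 558) in TauT+/+ and 139 to 357 CPM (median 280) in TauT-/- libraries. Of these 4 markers 0 had a positive log2 fold change and 0 passed the test, with a median of -1.36. The sum was 1059 CPM in TauT+/+ male 2, where *Slc5a3* was highest, and 176, 195 and 318 CPM in TauT+/+ male 3, male 4 and female 3. It was 630, 651 and 558 CPM in TauT+/+ male 1, female 1 and female 2. TauT-/- female 4 had 357 CPM, more than TauT+/+ female 3, with *Slc5a3* at 20.3 against 98.2 CPM. Most of the sum was *Cebpa* in TauT+/+ male 2 (752 CPM) and *Fabp4* in TauT-/- female 4 (270 CPM). The part of the adipocyte markers in the result was not tested.

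The fall of *Slc5a3* was near the threshold in edgeR, while DESeq2 gave an adjusted p of 0.00044. Over 28 alternatives the log2 fold change stayed between -3.01 and -2.16, and the adjusted p, from 0.00044 to 0.631, was under 0.05 in 9 of them. Leaving out 1 library kept the call in 3 of 15 fits (without TauT-/- male 2, TauT+/+ male 3 or TauT+/+ male 4), and the other 12 fits gave adjusted p up to 0.113. Fits without the male-labelled or without the female-labelled library of both near-identical pairs gave -2.68 and -2.64 (edgeR adjusted p = 0.09 and 0.111). It was -2.83 (edgeR adjusted p = 0.155) without the 3 libraries that went against the sex label and -2.16 (edgeR adjusted p = 0.385) with the macrophage markers as a covariate. *Slc5a3* shares 404 exon bases, 3.6% of its exon length, with *Mrps6*, a mitochondrial ribosomal protein gene on the same strand, which averaged 60.2 ± 39.9 CPM (SD, n = 7) in TauT+/+ against 16.2 ± 8.39 CPM (SD, n = 8) in TauT-/- MSCs (log2 fold change -1.90, edgeR adjusted p = 0.0561).

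The other 3 genes of this list were named after their values were seen. *Slc5a11*, the SMIT2 carrier, and *Miox*, which starts the breakdown of myo-inositol, were below the filter, at means of 0.065 and 0.011 CPM in TauT+/+ MSCs. *Gde1*, which hydrolyses glycerophosphoinositol, had a log2 fold change of 0.70 (edgeR adjusted p = 0.33), with 354 CPM in TauT-/- female 4 and 36.3 to 70.2 CPM in the other TauT-/- libraries.

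The inositol phosphate kinases held 0 calls among 8 tested genes (median log2 fold change -0.0063). *Itpkb*, a kinase of inositol trisphosphate, had the smallest p of the list (log2 fold change -0.35, edgeR adjusted p = 0.116), and *Ipmk*, *Ip6k1* and *Ppip5k2*, which make inositol phosphates and pyrophosphates further along, had log2 fold changes of 0.016, 0.037 and -0.029. These genes were named after their values were seen. The list of inositol phosphate and phosphoinositide phosphatases had 0 calls among 18 tested genes (median 0.18), and the list of the phosphatidylinositol cycle 0 among 18 (median 0.13). At an unadjusted p under 0.05, 1 kinase was lower (12.5%), 3 phosphatases were higher (16.7%), and 1 gene of the cycle was lower (5.56%) and 4 were higher (22.2%), where 13% of all genes were lower and 10.6% higher. DESeq2 called 0 kinases, 1 phosphatase (*Inpp5j*, 5.56%) and 1 gene of the cycle (*Pi4k2a*, 5.56%), both higher, against 5.28% of all genes.

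Phospholipases C and inositol trisphosphate receptors held 1 call among 13 tested genes, *Plcb2*, with a list median of -0.22. This was 7.69% called higher, against 0.546% of all genes. At an unadjusted p under 0.05 in edgeR, 15.4% were lower and 15.4% higher, against 13% and 10.6% of all genes. DESeq2 called 15.4% lower and 15.4% higher, against 6.31% and 5.28% of all genes. *Plcb2* is a phospholipase C known mainly from blood cells, on the minus strand of chromosome 2 from 118537979 to 118559111. It had 14.7, 2.13, 9.20 and 3.52 CPM in male TauT+/+ libraries 1 to 4 and 15.2, 8.87 and 9.86 CPM in female TauT+/+ libraries 1 to 3. In TauT-/- MSCs it had 21.3, 30.4, 17.2 and 24.4 CPM in male libraries 1 to 4 and 23.4, 28.3, 43.0 and 25.6 CPM in female libraries 1 to 4. The genotypes did not overlap, with a log2 fold change of 1.54 (SE 0.34, 95% interval 0.81 to 2.28, edgeR adjusted p = 0.0441). DESeq2 gave *Plcb2* an adjusted p of 0.00072. The call held in 8 of 28 alternatives, 3 of them among the 15 fits that left out 1 library (TauT-/- female 1, TauT+/+ male 1 or TauT+/+ male 3), and the other 12 of these gave adjusted p up to 0.107. Leaving out the male-labelled or the female-labelled library of each near-identical pair gave 1.80 and 1.74 (edgeR adjusted p = 0.066 and 0.0974), and leaving out the 3 libraries against the sex label gave 1.86 (edgeR adjusted p = 0.137). With the macrophage markers as a covariate, the log2 fold change of *Plcb2* was 0.82 (edgeR adjusted p = 0.379).

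**Figure D5:**
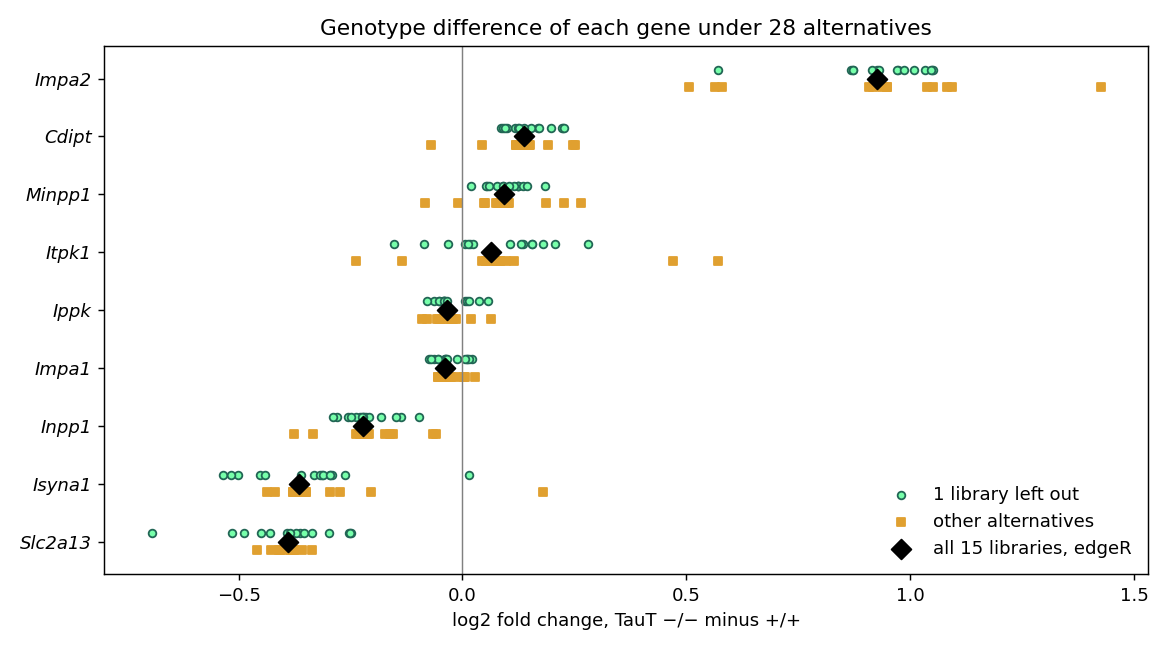
Log2 fold change (TauT-/- minus TauT+/+, horizontal axis) of each of the 9 genes in the fit of all 15 libraries (diamond), in 15 fits that leave out 1 library (circles) and in 13 other alternatives (squares). *Impa2* stays above 0 throughout, at 0.51 to 1.42, *Inpp1* and *Slc2a13* stay below 0, and the other 6 genes fall on both sides.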

How the data were processed

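Bulk RNA-sequencing libraries were made with a SMART-Seq mRNA kit that amplifies full-length cDNA. The authors filtered reads with fastp, mapped them with STAR 2.7.9a to GRCm39 with GENCODE M31 and counted them on genes with featureCounts at strand setting 2, and the deposited values are whole-number counts, not normalized. Whether the kit marks the strand is not given in the sources used here. Their text calls the reference human, while the build is that of the mouse. The test was that of edgeR 4.0.16 in R 4.3.3 (TMM, filterByExpr, quasi-likelihood test with sex label and genotype, Benjamini-Hochberg adjustment, threshold 0.05). The study itself tested sex and condition with DESeq2 at an adjusted p of 0.05. Here DESeq2 1.42.0 was an alternative, and it called more genes than edgeR. The biological coefficient of variation was 0.482. Intervals are 95%, and CPM use TMM-scaled library sizes. Total counts of 12761107 to 101575071 left at least 34 counts for each member in each library. The scripts were tested on simulated counts. Positions and exon lengths come from GENCODE M39 on GRCm39 (all 12 genes given positions matched by symbol), and copies were searched with BLAST+ 2.17.0.

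All 9 members were named, as were the genes of the 5 lists with an adjusted p under 0.05 and the 3 genes most like *Isyna1*. Genes outside this rule are said to have been chosen after their values were seen. The members and lists were chosen with earlier results of these data known. The alternatives were DESeq2, other normalizations (upper quartile, DESeq2 size factors), no filter or at least 10 counts in every library, no sex term, the replicate number as a block, each sex label alone, 13 or 12 libraries, a macrophage covariate, the longest transcript as length, a pseudocount of 0.1, and leaving out each of 15 libraries.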

Additional observations from a re-analysis of the deposited data

How the results depend on the processing

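Under 28 alternatives, 0 of the 252 values of the 9 members passed the threshold, 227 kept their direction and 25 reversed it. *Impa2* (0.51 to 1.42), *Inpp1* (-0.38 to -0.059) and *Slc2a13* (-0.69 to -0.25) kept their sign in all 28. With the replicate block, *Itpk1* was -0.14 and *Ippk* 0.063 on the log2 scale. The labels give no pairing by number, and for that reason the main fit assumed none. The correlation of same-numbered deviations was -0.035 to 0.637 and over 0.1 in 5 of 7 pairs. Those of number 1, at 0.310 under the female and 0.253 under the male label, come from near-identical libraries and are not independent. Of the 14 libraries, 11 correlated best with their own number. These values lean towards a pairing by number, which the main fit does not model. The block gave 75 lower and 57 higher genes against 129 and 94, and it changed no other direction among the members. With it *Impa2* was 0.58 (SE 0.19, edgeR adjusted p = 0.114). *Slc5a3* then had an edgeR adjusted p of 0.0498 and *Plcb2*, no longer called, of 0.0689. With male-labelled libraries alone *Itpk1* was -0.24, and with female-labelled ones *Impa1* was 0.0025 and *Minpp1* -0.084. Without the male-labelled library of each near-identical pair *Minpp1* was -0.010, and without the 3 libraries against the sex label *Impa1* was 0.0054 and *Ippk* 0.020. With the macrophage covariate *Isyna1* was 0.18, *Impa1* 0.028 and *Cdipt* -0.071. Leaving out 1 library gave -0.53 to 0.014 for *Isyna1*, -0.076 to 0.020 for *Impa1*, -0.15 to 0.28 for *Itpk1* and -0.079 to 0.057 for *Ippk*. The cause of these changes was not tested. Female-labelled libraries were shallower and limit *Slc2a13* most, with 34 to 237 counts.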
